A study of Danio rerio with 5 samples.

Results

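The genes examined here are the PAR bZIP transcription factors of the zebrafish, tefa, tefb, hlfa, hlfb, dbpa and dbpb, together with nfil3. They were chosen by symbol, and all 7 symbols were found, each once, among the 21854 genes listed. Expression had been measured by RNA-seq of poly(A) RNA from whole zebrafish larvae at 2 weeks post fertilization (wpf), and 10 larvae were pooled for each library. The libraries labelled Mutant numbered 3 and came from larvae homozygous for the zbtb24mk22 deletion allele, and those labelled WT numbered 2. The series describes 3 pools per genotype, and only the libraries named here were analysed. The deletion is carried in every cell and is a single allele, and no drug or other treatment was applied in either group. The paper gives AB as the background of its wild-type lines. It describes the wild-type fish of this RNA-seq comparison as siblings of the mutants. ZBTB24 is a zinc finger protein mutated in ICF syndrome, a disorder of immunodeficiency, centromeric instability and facial anomalies in which pericentromeric repeats lose DNA methylation. The hour of day at which larvae were collected is not given in the sources used here.

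PAR bZIP proteins, named for a proline and acidic amino acid rich domain beside a basic leucine zipper, are activators that bind a DNA element called the D-box. NFIL3, also known as E4BP4, is a related leucine zipper protein that lacks the activating domain and represses from the same element, so the balance of activators and repressor sets the output of D-box promoters. In mammals the abundance of DBP, TEF and HLF follows the circadian clock in liver and kidney, and mice without all of these factors have seizures. In zebrafish tefa is induced by light and acts on the D-box of the clock gene per2. The fish genes tefa and tefb, hlfa and hlfb, and dbpa and dbpb are paralogue pairs, each pair corresponding to a single mammalian gene.

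Each value below is a scaled count, that is, the reads assigned to a gene after division by the library's size factor. The libraries held from 23796792 to 28601962 reads assigned to genes. The WT libraries are named here as column 2 and column 3, since neither could be matched to a single sample. Transcripts of zbtb24 were at 155, 175 and 282 scaled counts in the libraries labelled Mutant, against 127 and 77.3 in those labelled WT, giving 0.98 as log2 fold change (SE 0.28, adjusted p = 0.0642). Counts of the targeted gene were thus not lower in any library labelled Mutant. This differs from the paper, which reports no zbtb24 transcripts detected in mutants by qRT-PCR at 2 wpf. The deletion removes only part of the gene, and reads of the remaining exons could still be counted. Where in the gene the reads fell was not tested. A count over the whole gene thus cannot decide the label, and every direction below is given for libraries as labelled. The samples also carry the source label Fin, while the series describes whole larvae. Of 30 marker genes of brain, liver, muscle, photoreceptors, and skin and fin, 29 were found and each of these was present in every library, the lowest at 286 scaled counts (opn1lw1, a cone opsin), so organs other than fin were represented.

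None of the 7 genes passed the threshold of an adjusted p under 0.05 in limma (0 of 7, against 6.0% of the 20307 genes tested). An unadjusted p under 0.05 was reached by 3 of 7 (hlfa, hlfb and dbpa), against 26.7% of tested genes. All 3 had lower values in the libraries labelled Mutant, and 13.6% of tested genes reached it in that direction. Log2 fold changes of libraries labelled Mutant over WT were negative for 6 of 7 genes, against 50.2% of tested genes, with a median of -0.26 over the 7 and of -0.0014 over all tested genes. In the same 3 genes every library labelled Mutant lay below both labelled WT, as in 22.7% of all tested genes, and in 0 of 7 did every one lie above, as in 22.3%. With voom, which weights the reads and scales by library totals in place of the deposited size factors, 1 of 7 was called (hlfb). Over the whole table voom called 1246 genes lower and 485 higher, against 544 and 674 in the main fit.

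**Figure D1:**
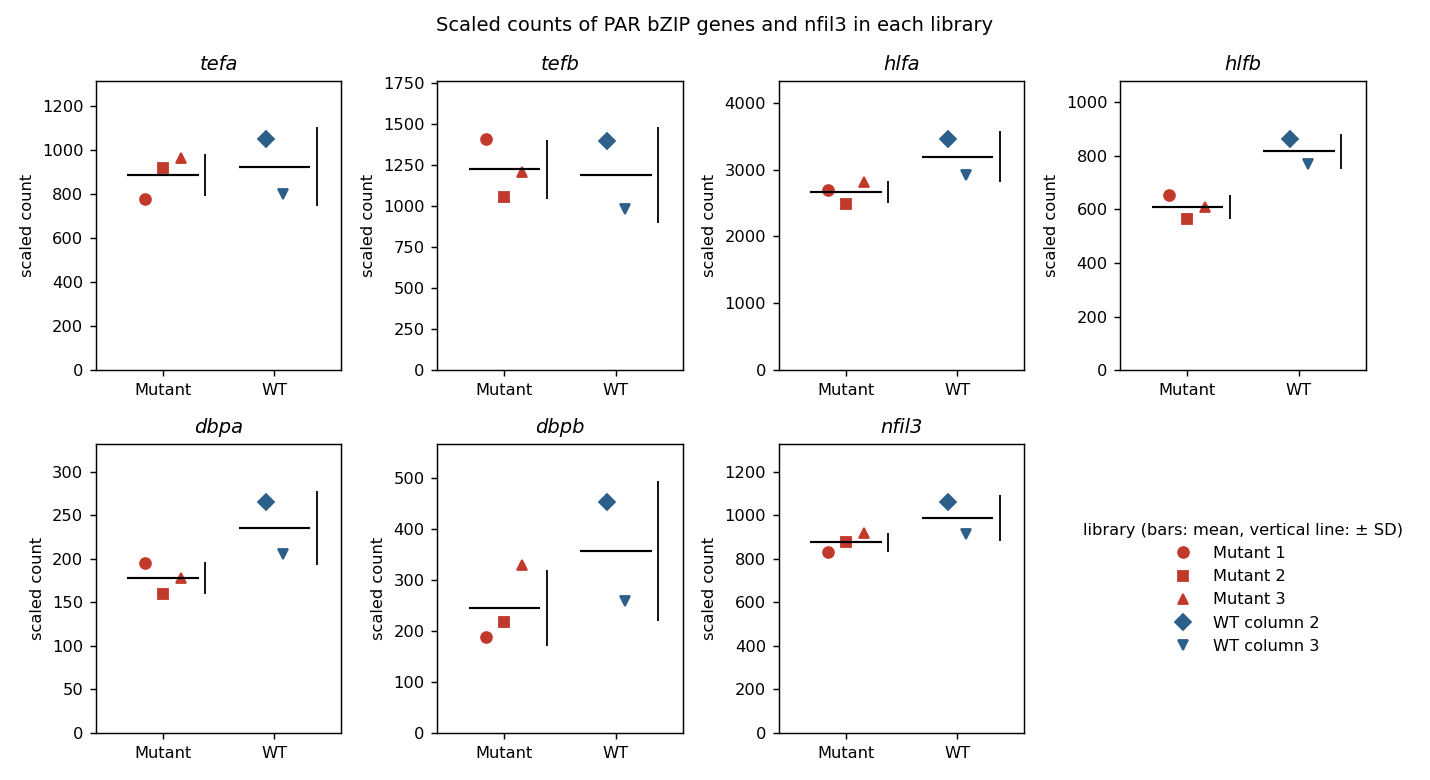
Scaled counts (vertical axes, each starting at 0) of the 7 genes in the 3 libraries labelled Mutant (left in each panel) and the 2 labelled WT (right), with 1 point per library, horizontal bars for means and vertical lines for ± SD. The groups do not overlap for hlfa, hlfb and dbpa, and the WT library of column 2 lies above that of column 3 in every panel.

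No difference between the groups was detected for the tef pair. Scaled counts of tefa (ENSDARG00000039117), the light-responsive activator, were 779.7, 917 and 965 in the libraries labelled Mutant, against 1051 and 799 in those labelled WT. The highest and the second lowest of these values were both WT, so the groups overlapped fully. Means were 887 ± 96.1 (SD, n = 3) in Mutant and 925 ± 178 (SD, n = 2) in WT, and the log2 fold change came to -0.05 (SE 0.14, adjusted p = 0.839). Its 95% interval ran from -0.37 to 0.26. Scaled counts of tefb (ENSDARG00000098103) were 1409, 1053 and 1208 in the libraries labelled Mutant, against 1394 and 982 in those labelled WT. Mutant replicate 1 thus held the highest tefb value and the lowest tefa value of all libraries. Means of tefb were 1223 ± 179 (SD, n = 3) in Mutant and 1188 ± 291 (SD, n = 2) in WT, with or 0.05 as log2 fold change (SE 0.16, adjusted p = 0.859) and a 95% interval from -0.31 to 0.42. For both genes the sign of the fold change turned when a library was left out, as given in the closing section.

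The hlf pair was lower in every library labelled Mutant than in either labelled WT, by an amount that did not pass the threshold. HLF was first known as the partner in a leukaemia fusion protein and is an activator of D-box genes. Scaled counts of hlfa (ENSDARG00000074752) were 2695, 2491 and 2814 in the libraries labelled Mutant, against 3459.9 and 2926 in those labelled WT. The gap between the groups was narrow, since Mutant replicate 3 and the WT library of column 3 were closer to each other than the pair labelled WT. Means were 2667 ± 164 (SD, n = 3) in Mutant and 3193 ± 378 (SD, n = 2) in WT, and the log2 fold change came to -0.26 (SE 0.11, adjusted p = 0.161), with a 95% interval from -0.49 to -0.019. Without the WT library of column 2 it was -0.14 (adjusted p = 0.657). Scaled counts of hlfb (ENSDARG00000061011) were 654, 566 and 610.2 in the libraries labelled Mutant, against 863 and 769.6 in those labelled WT. Here the groups were set further apart on the log2 scale, and the pair labelled WT was tighter than for hlfa. Means were 610.1 ± 44.0 (SD, n = 3) in Mutant and 817 ± 66.4 (SD, n = 2) in WT, and the log2 fold change of -0.42 (SE 0.11) was that with the lowest p of the 7 genes (adjusted p = 0.0594). Its 95% interval ran from -0.67 to -0.16. The call of hlfb turned on single choices, since it passed without the WT library of column 3 (-0.50, adjusted p = 0.0446) and when columns were rescaled to equal totals (-0.50, adjusted p = 0.0338), and its adjusted p ranged from 0.0312 to 0.348 over all alternatives.

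The dbp pair had the fewest reads of the 7 genes. DBP, the D-site albumin promoter binding protein, is among the most strongly rhythmic clock outputs of mammals. Scaled counts of dbpa (ENSDARG00000063014) were 196, 159 and 178 in the libraries labelled Mutant, against 266 and 205 in those labelled WT. The highest Mutant and the lowest WT value were again close together. Means were 178 ± 18.3 (SD, n = 3) in Mutant and 236 ± 42.9 (SD, n = 2) in WT, and the log2 fold change came to -0.40 (SE 0.16, adjusted p = 0.157), with a 95% interval from -0.76 to -0.033. Without the WT library of column 2 it was -0.21 (adjusted p = 0.674). Scaled counts of dbpb (ENSDARG00000057652) were 189, 217 and 329 in the libraries labelled Mutant, against 454 and 259 in those labelled WT. This was the most variable of the 7, with a coefficient of variation of 30.3% in Mutant and 38.5% in WT, and Mutant replicate 3 lay between the libraries labelled WT. Its means were 245 ± 74.2 (SD, n = 3) in Mutant and 357 ± 137 (SD, n = 2) in WT. The log2 fold change of -0.52 was the most negative of the 7 and also had the largest error (SE 0.27, adjusted p = 0.237, 95% interval from -1.12 to 0.069). It was at -0.12 without the WT library of column 2 and at -0.93 without that of column 3. The smallest number of dbpb reads in a library was 191, which gives a counting error of 7.24%.

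The repressor nfil3 (ENSDARG00000042977) was at 832, 878 and 917 scaled counts in the libraries labelled Mutant, against 1064 and 915 in those labelled WT. Mutant replicate 3 lay just above the WT library of column 3, so the groups overlapped by a small margin. Means were 876 ± 42.6 (SD, n = 3) in Mutant and 989 ± 106 (SD, n = 2) in WT, and the log2 fold change came to -0.17 (SE 0.11, adjusted p = 0.344, 95% interval from -0.42 to 0.073), or -0.06 without the WT library of column 2. For 6 of the 7 genes, all but dbpb, the 95% interval lay within a change of 1 on the log2 scale in either direction.

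Across libraries the 7 genes shared one feature that the labels do not name. The WT library of column 2 exceeded that of column 3 for all 7 genes, against 51.4% of all tested genes, and held the highest value of the series for 6 of them. This order was not particular to the 7 genes. It was also seen in every tested clock activator and repressor examined below except arntl2 and cry1ab. Among the 7 genes, Mutant replicates 1 and 2 held the lowest value for 3 each, and the WT library of column 3 for 1. Mutant replicate 3 held the second highest value for 3 genes (tefa, dbpb and nfil3). The spread within the pair labelled WT was also set beside the differences between groups. On the log2 scale that pair differed by 0.39 for tefa, 0.50 for tefb, 0.37 for dbpa and 0.80 for dbpb, and by 0.24, 0.17 and 0.22 for hlfa, hlfb and nfil3. The fold change between groups was larger than that difference for hlfb, and by a small margin for dbpa and hlfa, and smaller for the other 4 genes.

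Paralogues were then compared within each library, since a ratio of a pair is not moved by the scaling of the library. These are ratios of scaled counts, not of transcript levels, because gene length was not taken into account. The log2 ratio of tefa to tefb was -0.85, -0.20 and -0.32 in the libraries labelled Mutant, against -0.41 and -0.30 in those labelled WT. Mutant replicate 1 stood apart from the other libraries, and the difference of means was -0.11 (p = 0.9, exact permutation test). The log2 ratio of hlfa to hlfb was 2.04, 2.14 and 2.20 in the libraries labelled Mutant, against 2.001 and 1.93 in those labelled WT. The groups did not overlap in this ratio, with means of 2.13 ± 0.082 (SD, n = 3) in Mutant and 1.96 ± 0.054 (SD, n = 2) in WT, and a difference of 0.16 (p = 0.2, exact permutation test). The log2 ratio of dbpa to dbpb was 0.052, -0.45 and -0.89 in the libraries labelled Mutant, against -0.77 and -0.34 in those labelled WT, so the groups overlapped and the difference was 0.12 (p = 0.9, exact permutation test). Of the 3 pairs tested with this two-sided test none could reach a p below 0.1, the smallest it allows with 3 libraries against 2, and after Benjamini-Hochberg adjustment the p-values were 0.9, 0.6 and 0.9. No difference between the groups could thus be shown for any pair with this number of libraries.

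**Figure D2:**
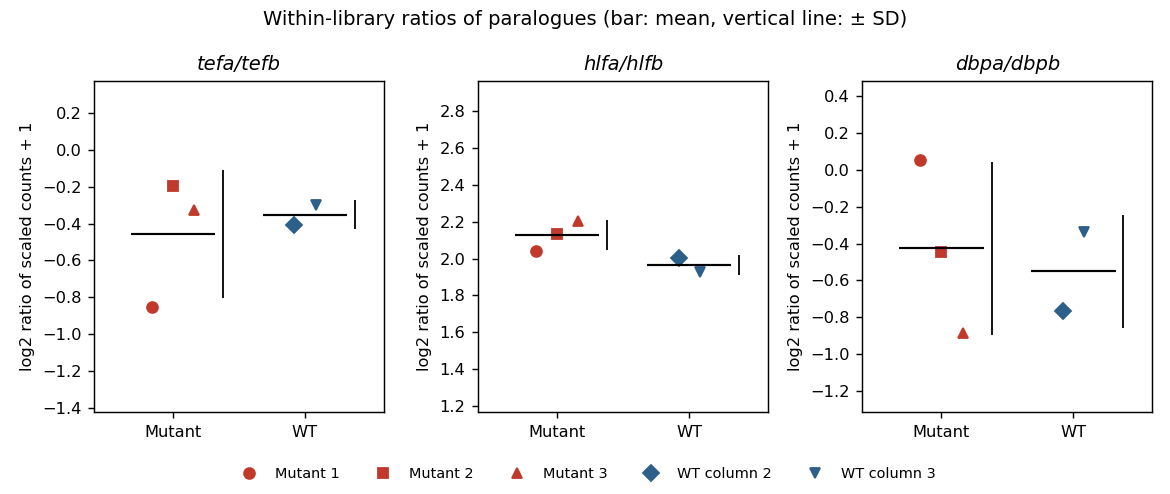
Log2 ratio of the scaled counts of each paralogue pair (vertical axes, all spanning the same range) in the 3 libraries labelled Mutant (left) and the 2 labelled WT (right), with horizontal bars for means and vertical lines for ± SD. The groups separate for hlfa over hlfb, and Mutant replicate 1 lies apart for tefa over tefb.

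Zebrafish carry further nfil3 genes, which encode relatives of the same repressor, and these did pass the threshold. Of 5 such genes listed for the purpose, nfil3-2, nfil3-5 and nfil3-6 were found and all 3 fell in the libraries labelled Mutant, where 2.68% of all tested genes fell. The list was chosen with earlier results of these data known, so this share only describes the genes and gives no independent support. Scaled counts of nfil3-6 (ENSDARG00000087188) were 782, 718 and 876 in the libraries labelled Mutant, against 1189 and 1372 in those labelled WT, or -0.69 as log2 fold change (SE 0.12, adjusted p = 0.0209). Scaled counts of nfil3-2 (ENSDARG00000043237) were 4634, 4481 and 5451 in the libraries labelled Mutant, against 7099 and 6932 in those labelled WT, or -0.54 as log2 fold change (SE 0.11, adjusted p = 0.0275). In both genes, and in nfil3-5 as given next, every Mutant library lay below both WT libraries, as in 22.7% of all tested genes. Scaled counts of nfil3-5 (ENSDARG00000094965) were 15647, 16571 and 18883 in the libraries labelled Mutant, against 24193 and 23156 in those labelled WT, or -0.48 as log2 fold change (SE 0.11, adjusted p = 0.0361). The pair labelled WT was close for nfil3-2 and nfil3-5, and for nfil3-6 the column 2 library was the lower one. Whether these genes changed by more than nfil3 itself was not tested. In the RefSeq annotation of assembly GRCz12tu nfil3-2 and nfil3-6 are neighbours with 0 genes between them. Reads shared by similar copies could be lost or misassigned in the counting. The number called was 0 of 3 without the WT library of column 2 or without Mutant replicate 2, and 1 of 3 without Mutant replicate 1, while the fold changes stayed between -0.42 and -0.80.

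**Figure D3:**
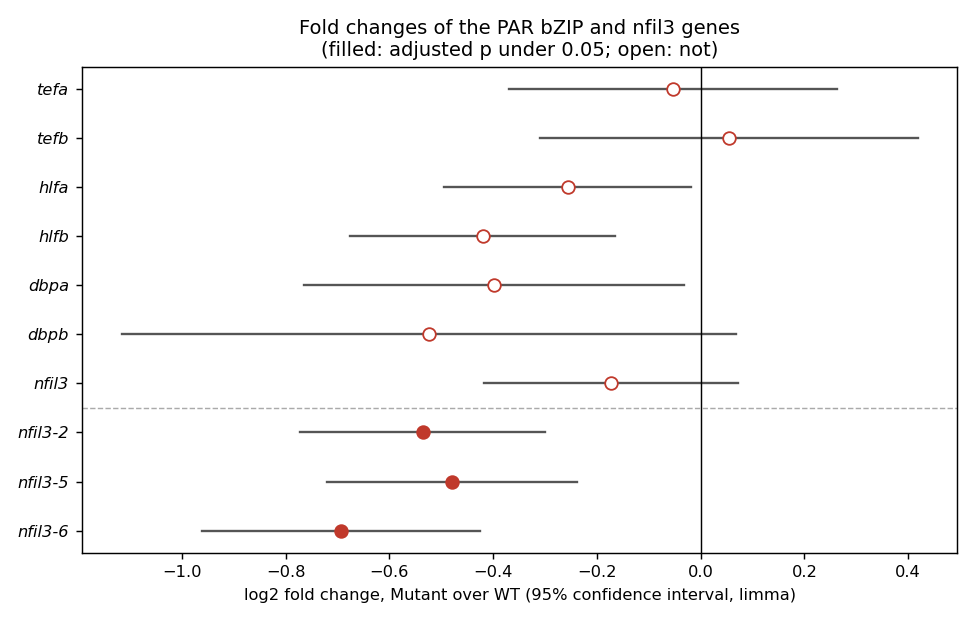
Log2 fold change of libraries labelled Mutant over WT (horizontal axis) with its 95% confidence interval from limma for the 7 genes (above the dashed line) and the other nfil3 genes (below it), where filled points passed an adjusted p under 0.05. The intervals of hlfa, hlfb and dbpa lie below 0 without passing, and nfil3-2, nfil3-5 and nfil3-6 pass.

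Clock genes that act upstream of PAR bZIP transcription in mammals were examined next. The lists here and below were chosen with earlier results of these data known. Their shares only describe the genes and give no independent support. Genes of a list were also read in the same libraries and do not count as separate observations. Of 11 tested activators, which are the clock, bmal and ROR genes, all had a negative log2 fold change, against 50.2% of all tested genes. Their median was -0.34. An unadjusted p under 0.05 in limma, with lower values in Mutant, was reached by 10 of 11, against 13.6% of all tested genes. In 10 of 11 every library labelled Mutant lay below both labelled WT, against 22.7% of all tested genes. Past the threshold 1 of 11 fell, against 2.68% of all tested genes. That gene was rorca, a ROR nuclear receptor, at 1805, 1709 and 1854 scaled counts in the libraries labelled Mutant, against 2695 and 2639 in those labelled WT (log2 fold change -0.58, SE 0.092, adjusted p = 0.0167). The next lowest p-values were those of npas2 (-0.42, adjusted p = 0.0523), arntl1b (-0.43, adjusted p = 0.0542) and rorab (-0.41, adjusted p = 0.0576), with npas2 and arntl1b encoding partners that form the E-box activator. With any 1 library removed, the value of rorca stayed between -0.60 and -0.54. Removing either WT library leaves 1 in that group, so whether the rorca call survives such a removal cannot be decided. The number called was 0 without Mutant replicate 2, and 7 under equal totals and with voom. Lower calls over the whole table also rose, to 1103 with equal totals and 1246 with voom, against 544 with the deposited scaling.

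Of 18 tested repressors, which are the period, cryptochrome, rev-erb, bhlhe and ciart genes, 16 had a negative log2 fold change, against 50.2% of all tested genes, with a median of -0.23. An unadjusted p under 0.05 in limma, with lower values in Mutant, was reached by 9 of 18, against 13.6% of all tested genes. Every library labelled Mutant lay below both labelled WT in 8 of 18, against 22.7%, and above both in 1, against 22.3%. The threshold was passed by 1 that fell, against 2.68% of all tested genes. That gene was bhlhe40, an E-box repressor also known as DEC1, at 1950.2, 1907 and 2000.2 scaled counts in the libraries labelled Mutant, against 2769 and 2623 in those labelled WT (log2 fold change -0.46, SE 0.091, adjusted p = 0.0267). The next lowest p-values were those of the rev-erb genes nr1d2a (-0.43, adjusted p = 0.0643) and nr1d4a (-0.57, adjusted p = 0.0700) and of the cryptochrome gene cry1bb (-0.28, adjusted p = 0.104). The number called was 0 without the WT library of column 2, Mutant replicate 1 or Mutant replicate 2, and 4 without Mutant replicate 3.

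Genes on which the factors act or are thought to act, in fish or in mammals, showed no common direction. Of 8 light and D-box responsive genes of fish, cry1aa and per2 are also among the repressors above. Of the 8, 0 passed the threshold in limma or with voom. In limma 2 had an unadjusted p under 0.05 (cry1aa and per2), both with lower values in Mutant. Of all tested genes 26.7% reached it in either direction and 13.6% in that direction. The median of the list was -0.014. The cryptochrome gene cry1aa was at -0.30 (adjusted p = 0.118), per2, the D-box target of tefa, at -0.23 (adjusted p = 0.172) and neil1, a base excision repair glycosylase, at 0.26 (adjusted p = 0.198). Of 10 orthologues of genes that PAR bZIP factors act on, or are thought to act on, in mammals, 1 rose, 0 fell, and the median was -0.011. The gene that rose was porb, a P450 oxidoreductase gene, with 5267, 6307 and 4905 scaled counts in the libraries labelled Mutant, against 3543 and 3852 in those labelled WT (log2 fold change 0.56, SE 0.12, adjusted p = 0.0303, where 3.32% of all tested genes rose). The call of porb was lost without the WT library of column 2, Mutant replicate 1 or Mutant replicate 2. The xenobiotic receptor gene nr1i2 (0.53, adjusted p = 0.0687), the bile acid synthesis gene cyp7a1a (-0.51, adjusted p = 0.120) and the lipid receptor gene pparaa (-0.43, adjusted p = 0.131) did not pass. Values of pdxka and pdxkb, pyridoxal kinase genes whose mouse counterpart depends on these factors in brain, were at 0.082 and -0.16.

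**Figure D4:**
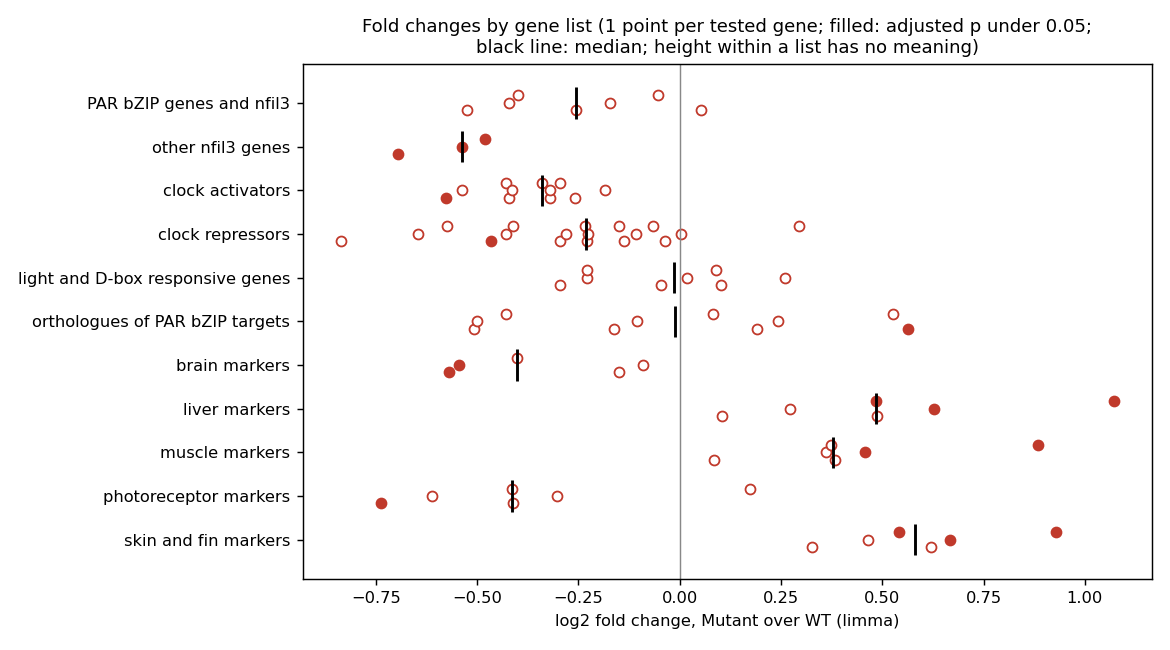
Log2 fold change of libraries labelled Mutant over WT (horizontal axis) of every tested gene of the clock, target and marker lists, with 1 point per gene, filled where the adjusted p was under 0.05, and a black line at the median of each list. Medians lie at -0.26 for the 7 genes, -0.54 for the other nfil3 genes, -0.34 for clock activators and -0.23 for clock repressors, while brain and photoreceptor markers lie mostly below 0 and liver, muscle, and skin and fin markers above it.

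Markers of whole tissues also differed between the groups. In pools of whole larvae, fewer cells of a type and less RNA per cell cannot be told apart. Of 5 brain markers found, 2 fell (snap25b and syt1a), where 2.68% of all tested genes fell, and the median log2 fold change was -0.40, with 20231 to 21131 summed scaled counts in the libraries labelled Mutant and 23240 to 27107 in those labelled WT. Of 6 photoreceptor markers 1 fell (gnat2), with a median of -0.41 and sums of 52548 to 68338 in Mutant and 79515 to 81705 in WT. The cone opsin gene opn1lw1 went the other way (log2 fold change 0.17, adjusted p = 0.659). Markers of other tissues were higher in the libraries labelled Mutant, where 3.32% of all tested genes rose. Of 6 liver markers 3 rose (apoa2, tfa and cp, median 0.49), of 6 muscle markers 2 rose (acta1b and tnnt3a, median 0.38), and of 6 skin and fin markers 3 rose (krt5, and2 and cldna, median 0.58). Summed liver markers were at 179993 to 214084 in Mutant and 103265 to 141831 in WT, and those of skin and fin at 340150 to 359695 in Mutant and 219226 to 248691 in WT. The sums of muscle markers were 621677 to 714234 in Mutant and 521299 to 542793 in WT. None of these marker calls held without the WT library of column 2 or without Mutant replicate 2, and 5 liver markers were called without the WT library of column 3. No marker was at 0 in any library. The part of these tissues in the values of the PAR bZIP, nfil3 and clock genes was not tested.

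Last, genes with the pattern most like that of 2 of the factors were looked up, using the root mean square distance of log2 values centred on each gene's mean over the 5 libraries. The closest to hlfb, the factor with the lowest p, were rfx1a (distance 0.0096), stag1a (0.017), celf3a (0.018), osbpl10 (0.024) and cyth3b (0.024), where the median of all tested genes was 0.27. Of these stag1a passed the threshold (log2 fold change -0.45, adjusted p = 0.0472). Among the closest to hlfa, the factor with the most reads, were rgs7a (0.0094), wdfy1 (0.013), fosl2 (0.014) and abca2 (0.014), where the median was 0.23, and none of these 4 passed. Among the 7 factors the closest pairs were hlfb with dbpa (0.072) and hlfa with nfil3 (0.074), each closer than the paralogues hlfa and hlfb (0.098), tefa and tefb (0.23) or dbpa and dbpb (0.33). With 5 libraries such distances only describe the values. Genes picked as the closest lie far below the median by that choice. Their fold changes resemble that of hlfb or hlfa for the same reason.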

How the data were processed

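The libraries of whole larvae analysed here numbered 5, with 3 labelled Mutant and 2 labelled WT. Per the study's methods and processing notes, the authors used STAR (two-pass) against danRer7, HTSeq 0.5.3 with Ensembl genes for counting, and DESeq for scaling. Whether counting used the strand is not stated. What was deposited is a signal value for each gene that equals the scaled count with 1 added, since after subtracting 1 every low value was a whole multiple of 1 step per library (100% within 0.01 read). That 1 was subtracted here. The smallest sum of a gene was 14.1, so genes with few reads had been left out by a rule not given in the sources used here.

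The log2 of the scaled count, after adding a pseudocount of 1, was fitted in limma 3.58.1 under R 4.3.3, using the trend option, both groups in 1 fit and no covariates. Testing covered the 20307 genes whose scaled counts averaged 10 or more (1547 were left out, among them 1 of a pair of clocka entries), all 7 PAR bZIP and nfil3 genes included. Tests were two-sided, p-values were adjusted by Benjamini-Hochberg over all tested genes, and calls were made below an adjusted p of 0.05. Fold changes are on the log2(scaled count + 1) scale. The steps were tested on simulated data with log2 changes of 1.5 in either direction, where 183 of 193 changed genes were called. Those changes were larger than any of the 7 factors, so detection at the sizes seen here was not tested. Paralogue ratios were compared with an exact permutation test over the libraries.

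The genes and lists were chosen with earlier results of these data known. Named are the 7 factors, zbtb24, list genes called and up to 3 others per list with the lowest p, the markers called, pdxka, pdxkb and opn1lw1 (named after their values were seen), and the 5 genes most like hlfb and hlfa, of which 1 is not reported here. In total 14 alternatives were run, 1 of them chosen after seeing the data. No gene sequences are shown, and coordinates on danRer7 were not used here.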

Additional observations from a re-analysis of the deposited data

How the results depend on the processing

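Of 63 fold changes of the 7 factors under another pseudocount, filter, scaling, weighting, variance prior or block, 57 kept their sign and their side of the threshold. The exceptions, beside tefa and tefb under the replicate block, were hlfb, which passed with equal totals (-0.50) and voom (-0.51), so that 1 of 7 was called lower in each, and tefb, whose sign turned with equal totals (-0.031) and voom (-0.034). Equal totals moved the median of all tested genes to -0.086 and the share of rises among all calls to 30.4%, against 55.3% with the deposited scaling, and gave 1103 lower genes in the whole table (1246 with voom, 544 with the deposited scaling). The voom fit also scaled by library totals, and its median over all tested genes was -0.086, so its calls do not reflect the weighting alone. Clock activators called lower numbered 7 with equal totals, 7 with voom, 3 with robust empirical Bayes and 2 with a minimum mean of 50. Clock repressors called lower numbered 4 with equal totals, 3 with voom and 2 with quantile normalization. With a library left out, log2 fold changes ranged from -0.25 to 0.14 for tefa (turned without the WT library of column 2 and without Mutant replicate 1) and from -0.20 to 0.31 for tefb (turned without the WT library of column 3 and without Mutant replicate 1). They ranged from -0.38 to -0.14 for hlfa, -0.50 to -0.34 for hlfb, -0.58 to -0.21 for dbpa, -0.93 to -0.12 for dbpb and -0.28 to -0.06 for nfil3, and from 0 to 1 of the factors were called lower. Over all tested genes, from 31 to 1317 were called higher and from 13 to 1111 lower. The numbers called lower were 0 to 3 of the other nfil3 genes, 0 to 5 activators and 0 to 4 repressors, and 0 to 2 target orthologues were called higher. A fit with 1 library labelled WT assumes that it varies like the others. Paralogue ratio differences ranged from -0.24 to 0.09 for tefa over tefb, 0.13 to 0.21 for hlfa over hlfb and -0.11 to 0.35 for dbpa over dbpb with a library left out. The first and the last thus changed sign, and every move was smaller than the larger of the group SDs. The column headers share the numbers 2 and 3 between groups, but these do not match the numbers of the WT sample titles, and nothing in the sources used here says that they mark pairs. Across tested genes the differences between columns 2 and 3 correlated at -0.16 between groups. A replicate block on column numbers, chosen after seeing the data and with 1 residual degree of freedom, gave 0.037 for tefa and -0.053 for tefb, both turned, called 0 of the 7 factors, 1 of the other nfil3 genes lower, 0 repressors lower, and 523 genes higher and 487 lower over all tested genes. The planned edgeR and DESeq2 alternatives were not run.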
